A study of Drosophila melanogaster with 10 samples.

Results

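The genes described here encode the proteins of oxidative phosphorylation that are made from the nuclear genome, in the adult ventral nerve cord (VNC, the fly counterpart of the spinal cord). They were taken from the gene count table by name, as every row whose FlyBase symbol starts with ND-, UQCR-, COX4, COX5, COX6, COX7, COX8 or ATPsyn, or is SdhA, SdhB, SdhC, SdhD, RFeSP, Cyt-c1 or blw. This gave 83 of 14352 rows, of which 39 belong to complex I, 4 to complex II, 9 to complex III, 15 to complex IV and 16 to complex V. The rule uses names alone, although the members were chosen with earlier results of these data known. Genes were kept where the mean of either group was above 2 TPM, and 72 passed, 36, 4, 8, 11 and 13 in the order of the complexes.

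The 10 libraries, 5 injured and 5 uninjured, came from adults of the w1118 laboratory strain, males and females together. Injured flies had their legs, wings and head cut off and lay on a humid agar plate for 5 hr before dissection. Uninjured flies were intact and spent the same 5 hr without food in agar vials. Each library is a pool of VNCs from many flies, whose age is 3 to 10 days in the labels and 3 to 5 days in the RNA-seq methods. P-values therefore measure the spread between pools. The loss of body parts and the housing cannot be told apart from nerve injury in this design, and neither can the loss of cells from less RNA per cell in whole-tissue RNA. Ribosomal RNA was depleted and no poly(A) selection was made.

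Oxidative phosphorylation runs in the inner mitochondrial membrane. Complex I takes electrons from NADH and complex II from succinate, complex III passes them on to cytochrome c, and complex IV gives them to oxygen. Complexes I, III and IV pump protons, and complex V, the ATP synthase, uses the gradient to make ATP. A few subunits are encoded by the mitochondrial genome and were not analysed here. Neurons rely heavily on this pathway, glia are often described as more glycolytic, and insect flight muscle, whose cells lie close to the VNC in the thorax, is among the tissues richest in it. Many subunit genes in the fly have a second copy, marked here by an L, L1 or L2 at the end of the symbol, and such copies are known mostly from the testis.

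The library totals were 5146470 to 6625705 counts in injured and 5763891 to 6640492 counts in uninjured libraries. Of 12 neuron markers and 10 glia markers all entered the test. Neuron markers summed to 1895 to 2135 TPM in injured and 1876 to 2366 TPM in uninjured libraries, and 0 of 12 were called by edgeR, DESeq2 or limma-voom (1 at an unadjusted p under 0.05 in edgeR). In the glia list 1 gene rose, moody by 0.65 on the log2 scale, and 3 fell. The falls were -1.87 for Mdr65, a transporter of the blood-brain barrier, -0.91 for wrapper and -0.48 for repo. The median of the 10 was -0.36, with 7 at an unadjusted p under 0.05 in edgeR, 6 lower and 1 higher. Markers of other tissues were also present. Muscle markers summed to 200.3 to 1761 TPM in injured and 401 to 582 TPM in uninjured libraries, and the 17 genes are taken up again below. Of 7 fat body genes 2 fell, Yp3 by 1.61 and apolpp by 0.89 on the log2 scale. That list had 5 genes below 0 and 2 above, the highest at 2.17 and not called. Of 6 hemocyte genes 4 fell, Sr-CI by 1.93 and NimC1 by 1.78. Yp3 kept its call in 11 of 19 alternative fits, and lost it without any 1 of injured libraries 1 and 4 and uninjured libraries 2, 3 and 4. Of the other hemocyte genes Hml kept its call in 11 and eater in 14 of 19, both losing it without any 1 of injured libraries 3, 4 and 5 and uninjured library 2, and Hml also without uninjured library 4. Of 7 gut genes 6 fell, with log2 changes of -4.58 for Jon25Biii and -3.52 for Jon99Cii, both serine proteases, although limma-voom called 1 of the 7. Jon25Biii kept its call in 19 of 19 alternative fits, Jon99Cii and Jon65Aiii in 17, Mal-A1 in 12, Jon99Ciii in 9 and betaTry in 8. The gut markers summed to 76.28, 502.5, 152.6, 87.79 and 87.07 TPM in uninjured libraries 1 to 5, and to 21.72 to 47.25 TPM in injured libraries. Testis markers were low, at 11.6 to 20.4 TPM in injured and 13.2 to 27.7 TPM in uninjured libraries in sum, and 0 of 5 tested were called by edgeR (1 at an unadjusted p under 0.05) and 1 by DESeq2.

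At 5 hr after injury the subunit genes stood close to their uninjured levels. In edgeR's quasi-likelihood test, with Benjamini-Hochberg adjustment over the 9365 genes tested and a call at an adjusted p under 0.01, 0 of 72 were called, against 13.8% of all genes tested, 7.15% higher and 6.61% lower. DESeq2 called 2 of the 72, 1 in each direction, against 8.63% higher and 8.33% lower of the 9350 genes to which it gave an adjusted p. With limma-voom 0 of 72 were called, against 12.9% of all genes. At an unadjusted p under 0.05 there were 7 of 72, against 36.2% of all genes. The median log2 fold change, injured over uninjured, was -0.01 for the 72 and -0.01 for all genes. The quartiles of the 72 ran from -0.10 to 0.03, whereas that of all genes ran from -0.18 to 0.16. In 0 of 72 genes did the 5 injured libraries lie wholly above or wholly below the 5 uninjured ones, where 8.06% of all genes lay wholly above and 8.45% wholly below.

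The width of the intervals shows how large a change these libraries leave room for. For 37 of the 72 genes the 95% interval of the fold change, taken gene by gene, lay within 1.2-fold in either direction, or 51.4% against 22.8% of all genes tested. For 64 of the 72 it lay within 1.5-fold (88.9% against 67.8%). Of the 8 genes outside that range 7 were second copies, read at 10 to 156 counts per library, and the other was ND-B8.

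**Figure D1:**
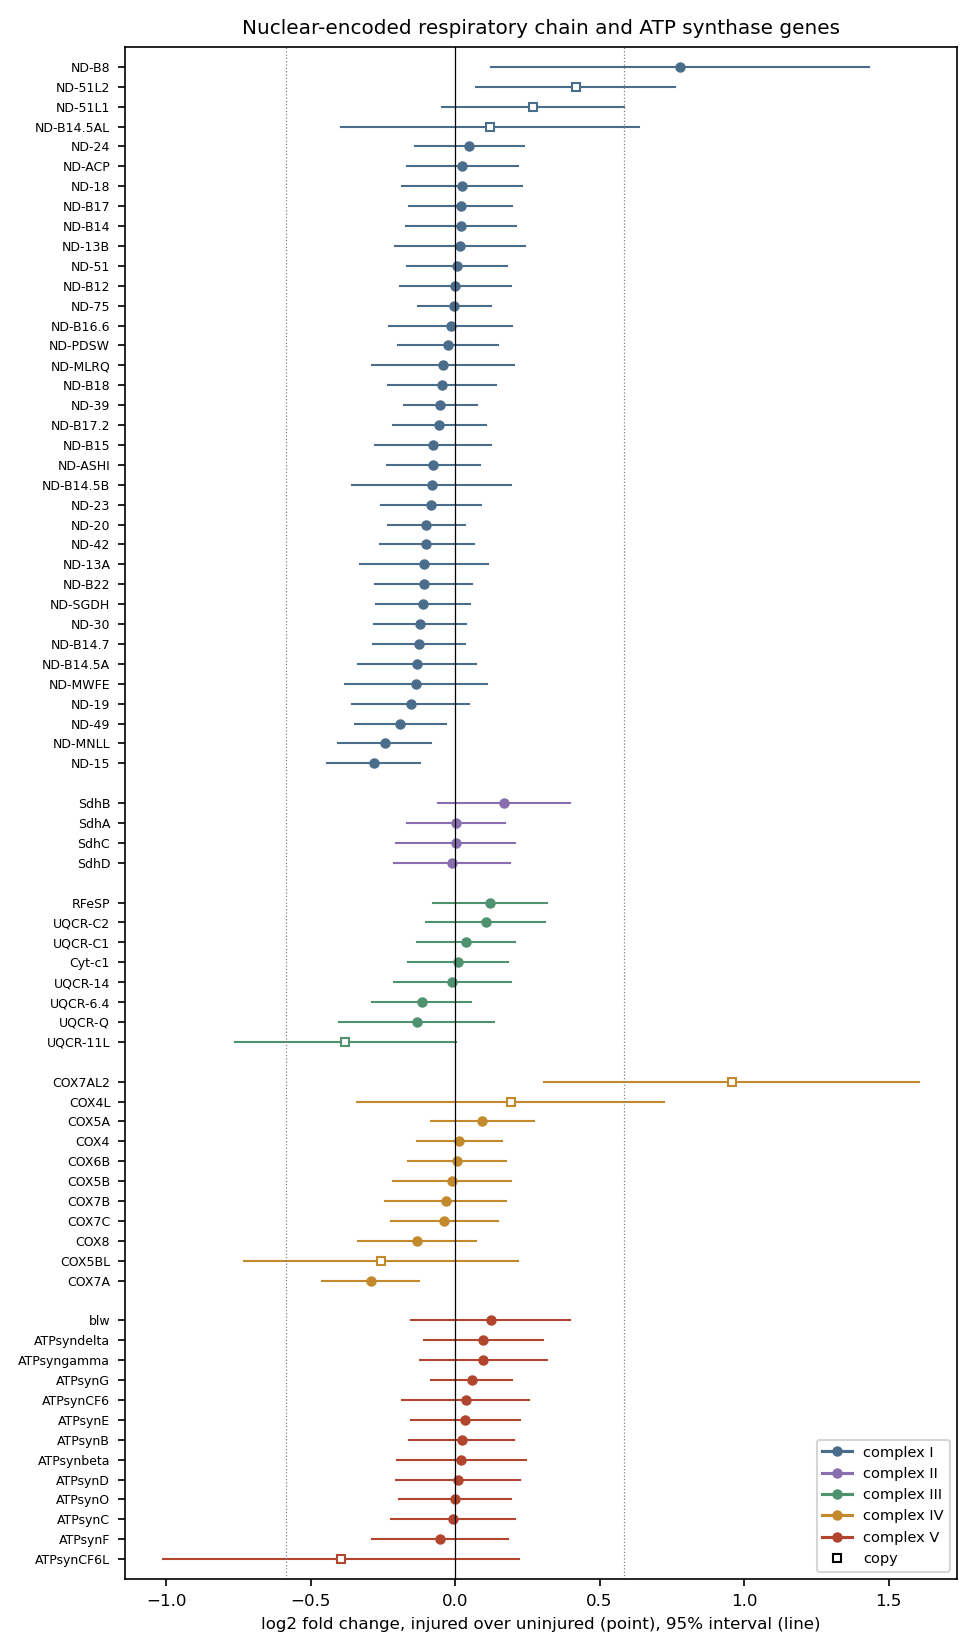
Log2 fold change of each of the 72 analysed genes, injured over uninjured (points), with its 95% interval (lines), grouped and coloured by complex. Open squares are second copies and dotted lines mark 1.5-fold. Most points sit near 0, from -0.40 for ATPsynCF6L to 0.96 for COX7AL2, and the widest lines belong to the copies and to ND-B8.

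Levels between genes are compared in TPM, which the authors computed per kilobase of the longest transcript. Subunit genes were among the abundant messages of the VNC. The 64 genes that are not copies had a median of 86.2 TPM over all 10 libraries, against 10.5 TPM for all genes tested, and 94.8% of genes tested lay below that median. They were also short, with a median of 0.836 kb against 1.95 kb. Complex V had the most abundant messages, with a sum of 2662 ± 372 TPM in injured and 2686 ± 97.1 TPM in uninjured libraries (SD, n = 5 each). Complex I followed with 2116 ± 305 and 2278 ± 64.0 TPM, in the same order of groups, although it has 39 rows against 16. Complex IV summed to 1238 ± 194 TPM in injured and 1281 ± 64.0 TPM in uninjured libraries, complex III to 827 ± 127 and 837 ± 29.7 TPM, and complex II to 375 ± 67.2 and 374 ± 18.1 TPM. For each complex the 2 means lay within 1 SD of the injured libraries, and the SD was larger in the injured group.

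**Figure D2:**
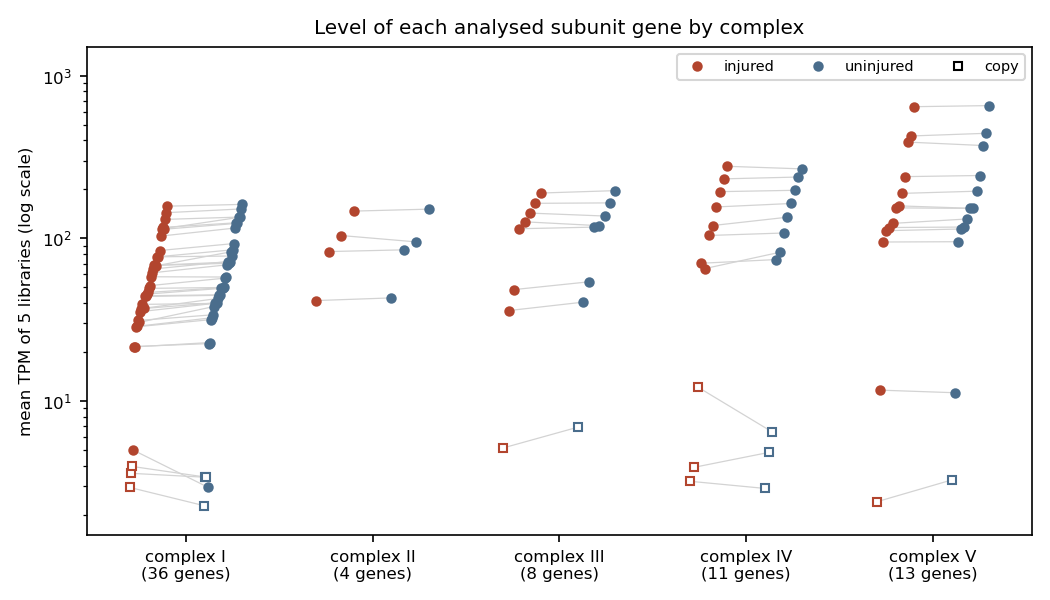
Mean TPM of each analysed gene (log axis) in injured (red, left) and uninjured (blue, right) libraries, by complex, with a grey line joining the 2 means of a gene. Filled points are the main genes and open squares the copies. The ATP synthase genes ATPsynbeta, ATPsynC and blw are at the top, at 372 to 654 TPM, and the copies lie at 2.27 to 12.2 TPM.

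In complex I, which oxidises NADH, the 36 analysed genes had a median log2 fold change of -0.05, and 24 of them were below 0 (66.7%, against 52.0% of all genes tested). The 7 core subunits, which carry the flavin and the iron-sulfur clusters, had a median of -0.08 and the 26 other subunits that are not copies -0.06. The median of the complex was between -0.10 and -0.02 in all 19 alternative fits, but 0 of 36 genes were called by edgeR or limma-voom, and by DESeq2 also 0 (5 of 36 at an unadjusted p under 0.05 in edgeR). ND-51, the core subunit that binds NADH, had 447, 400.0, 331, 394 and 339.9 CPM (counts relative to the normalised total of a library) in injured libraries 1 to 5. It had 396, 385, 392, 378 and 354 CPM in uninjured libraries 1 to 5. The injured values spread on both sides of the uninjured ones, and the log2 fold change was 0.01 (SE 0.08, 95% interval -0.17 to 0.18, adjusted p = 0.972).

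ND-MLRQ, the counterpart of mammalian NDUFA4, a protein that in mammals has been reassigned to complex IV, was next in level. It had 156, 117, 112, 104 and 98.0 CPM in injured libraries and 103, 124, 131, 121 and 127 CPM in uninjured libraries. Injured library 1 was the highest of all 10 and injured library 5 the lowest, and the log2 fold change was -0.04 (SE 0.11, adjusted p = 0.818). ND-49, another core subunit, is named here after its values were seen. It had 323, 260.2, 266, 271 and 266 CPM in injured and 299.6, 312, 349, 289 and 332 CPM in uninjured libraries. Only injured library 1 reached the uninjured range, and the log2 fold change was -0.19 (SE 0.07, adjusted p = 0.0784).

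4 genes of the 72 had an adjusted p between 0.01 and 0.05, below the call set here, 3 with lower and 1 with higher values in injured libraries. Of all genes tested 12.2% were lower and 11.3% higher at that looser threshold. These genes are singled out by their p and are described for that reason alone. Both ND-15 and ND-MNLL are small accessory subunits of complex I. ND-15, the counterpart of mammalian NDUFS5, had 46.2, 36.3, 40.6, 40.4 and 38.4 CPM in injured libraries and 48.4, 48.7, 50.9, 45.8 and 51.8 CPM in uninjured libraries. All injured libraries except library 1 lay below every uninjured library. The log2 fold change was -0.28 (SE 0.07, 95% interval -0.44 to -0.12, adjusted p = 0.0155, edgeR).

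ND-MNLL, the counterpart of NDUFB1, had 77.6, 64.7, 65.6, 60.6 and 67.3 CPM in injured and 72.8, 76.4, 86.8, 78.2 and 83.7 CPM in uninjured libraries. Again injured library 1 alone was inside the uninjured range. Its log2 fold change was -0.24 (SE 0.07, adjusted p = 0.0312). Without injured library 1, ND-15 (-0.34, adjusted p = 0.00295), ND-MNLL (-0.30, 0.00469), ND-49 (-0.25, 0.00742) and COX7A of complex IV (-0.36, 0.00171) passed the call. In that fit 4 of 72 were lower, where 7.29% of all genes were called lower and 16.6% in either direction. Leaving out other libraries weakened these genes. Over all edgeR fits without 1 library the adjusted p ran from 0.00295 to 0.0519 for ND-15. It ran from 0.00469 to 0.109 for ND-MNLL and from 0.00171 to 0.0555 for COX7A. In the later gene annotation the exons of ND-15 and of ND-MNLL overlap those of other genes, CG3436 and Pus10 for ND-15 and CG45089 for ND-MNLL, and the library kit does not mark strand, so that some reads may belong to the neighbours. Such an overlap was found for 35 of the 72 genes.

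**Figure D3:**
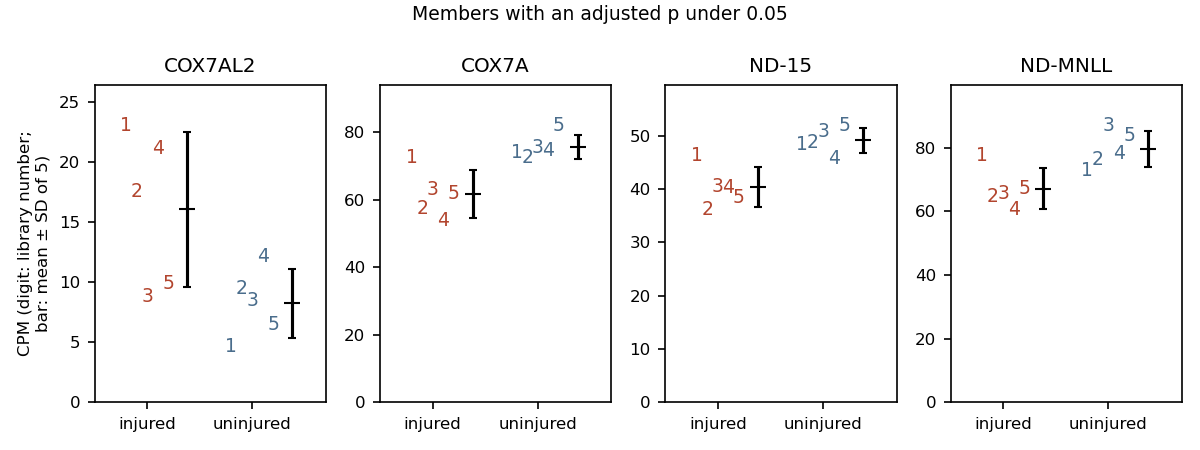
CPM of the 4 genes with an adjusted p under 0.05, with injured libraries on the left (red) and uninjured libraries on the right (blue). Digits are library numbers and black bars are the mean ± SD of 5 libraries. In COX7A, ND-15 and ND-MNLL injured library 1 is the highest injured library and the others lie below the uninjured ones, and in COX7AL2 injured libraries 1, 2 and 4 lie above them.

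The lowest main gene of complex I was ND-B8, the counterpart of NDUFA2, at 5.00 TPM in injured and 2.96 TPM in uninjured libraries, a level otherwise seen in the copies. Its values are shown although the naming rule did not pick it. It had 4.71, 5.85, 2.12, 2.63 and 2.15 CPM in injured and 1.89, 1.95, 2.12, 2.19 and 1.93 CPM in uninjured libraries, from 11 to 32 counts. Injured libraries 1 and 2 stood apart from the other 8, and the log2 fold change was 0.78 (SE 0.30, 95% interval 0.12 to 1.43, adjusted p = 0.0808). In the later annotation its exons overlap those of Gs1l on the other strand. The analysed copy ND-51L2 was the lowest of the complex, at 2.94 TPM in injured and 2.27 TPM in uninjured libraries. It had 6.04, 7.60, 7.33, 6.15 and 8.27 CPM in injured and 5.34, 5.84, 4.91, 4.04 and 6.30 CPM in uninjured libraries, with an overlap at 1 uninjured library and the log2 fold change was 0.42 (SE 0.16, adjusted p = 0.0766).

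Complex II, which oxidises succinate and is also an enzyme of the citric acid cycle, had a median log2 fold change of 0.00 over its 4 genes. SdhA, the flavoprotein, had 691, 667, 557, 638 and 532 CPM in injured and 613, 627, 648, 627 and 564 CPM in uninjured libraries. Its injured values lay on both sides of the uninjured ones, and the log2 fold change was 0.00 (SE 0.08, 95% interval -0.17 to 0.17). SdhB, the iron-sulfur subunit, had 234, 209.7, 162, 207 and 153 CPM in injured and 169.9, 165.5, 170.2, 190.0 and 163 CPM in uninjured libraries. Injured libraries 1, 2 and 4 were above every uninjured library and libraries 3 and 5 below, with a log2 fold change of 0.17 (SE 0.10, 95% interval -0.06 to 0.40, adjusted p = 0.267).

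SdhC and SdhD anchor the enzyme in the membrane. SdhD, which had the lowest TPM of the 4, stood at 65.8, 59.5, 43.6, 55.7 and 58.4 CPM in injured and 56.6, 56.6, 55.1, 59.3 and 57.4 CPM in uninjured libraries. Injured library 1 was above the narrow uninjured range and library 3 far under it. The log2 fold change of SdhD was -0.01 (SE 0.09), and that of SdhC 0.00 (SE 0.10), with 0 of 4 genes called and 0 at an unadjusted p under 0.05 in edgeR, and 0 called by DESeq2.

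In complex III, which hands electrons from ubiquinol to cytochrome c, 8 genes had a median log2 fold change of 0.00, with 4 below 0. UQCR-14, the counterpart of mammalian UQCRB, had 187, 148, 122, 156 and 143.5 CPM in injured and 140.2, 151, 158, 152 and 160.2 CPM in uninjured libraries. The highest and the lowest of its 10 values were both injured, in libraries 1 and 3, and the log2 fold change was -0.01 (SE 0.09, 95% interval -0.21 to 0.19). UQCR-C1, a core protein, had 427, 435, 337, 465 and 386 CPM in injured and 405, 389.7, 390.3, 424 and 388 CPM in uninjured libraries. Here injured libraries 1, 2 and 4 were above all uninjured libraries and 3 and 5 below, with a log2 fold change of 0.04 (SE 0.08).

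The Rieske iron-sulfur protein gene RFeSP (0.12, SE 0.09), the core gene UQCR-C2 (0.11, SE 0.10) and Cyt-c1 (0.01, SE 0.08) had the other values at or above 0 among the electron-carrying and core genes. The smaller subunits UQCR-6.4 and UQCR-Q stood at -0.12 (SE 0.08) and -0.13 (SE 0.12). UQCR-11L, at 5.15 TPM in injured and 6.91 TPM in uninjured libraries, had 3.09, 3.31, 4.07, 3.86 and 3.14 CPM in injured and 4.13, 4.80, 5.72, 3.54 and 4.55 CPM in uninjured libraries. Only 1 uninjured library fell within the injured range, on 17 to 35 counts, and the log2 fold change was -0.38 (SE 0.18, 95% interval -0.76 to 0.00, adjusted p = 0.14). In edgeR 0 of 8 genes were called and 0 had an unadjusted p under 0.05, and DESeq2 called 0.

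Complex IV, cytochrome c oxidase, had 11 analysed genes with a median log2 fold change of -0.01. COX5A, its most abundant message, had 353, 335, 260.5, 322 and 273 CPM in injured and 274, 278, 291, 299 and 304 CPM in uninjured libraries. Injured libraries 1, 2 and 4 were again above the uninjured range and 3 and 5 below it, with a log2 fold change of 0.09 (SE 0.08, 95% interval -0.08 to 0.27). COX6B, a subunit that faces the intermembrane space, had 280.1, 278, 216.5, 270.2 and 269 CPM in injured and 239, 245, 264.5, 270.2 and 289 CPM in uninjured libraries. The other 4 injured libraries lay inside the uninjured range, and library 3 was below all 9 others. The log2 fold change of COX6B was 0.01 (SE 0.08).

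COX7A and its copy COX7AL2 were the pair in complex IV with the largest difference. COX7A, a small membrane subunit, had 72.4, 57.5, 63.0, 53.7 and 61.8 CPM in injured and 74.0, 72.4, 75.5, 74.5 and 81.8 CPM in uninjured libraries. Injured library 1 met the lowest uninjured library and the other 4 were below, with a log2 fold change of -0.29 (SE 0.08, 95% interval -0.46 to -0.12, adjusted p = 0.0157). COX7AL2 had 23.0, 17.5, 8.80, 21.1 and 9.92 CPM in injured and 4.65, 9.44, 8.50, 12.1 and 6.48 CPM in uninjured libraries. Injured libraries 1, 2 and 4 were above every uninjured library and the other 2 were inside the uninjured range. Its log2 fold change was 0.96 (SE 0.30, 95% interval 0.31 to 1.61, adjusted p = 0.0351), the highest of the 72. DESeq2 gave an adjusted p of 0.00867 for COX7A and 0.0079 for COX7AL2, and limma-voom gave 0.0143 and 0.0654. For COX7AL2 the edgeR fits without 1 library gave 0.0133 to 0.0849. In TPM, COX7AL2 stood at 18.7% of COX7A in injured libraries and 7.86% in uninjured libraries. How reads were divided between close copies is not given in the sources used here.

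The other copies of complex IV were at a few TPM. COX4L, the lowest, had 1.91, 4.48, 2.93, 4.04 and 3.31 CPM in injured and 3.44, 2.10, 3.43, 2.70 and 2.80 CPM in uninjured libraries, on 13 to 23 counts, and its groups overlapped throughout. Its log2 fold change was 0.19 (SE 0.24, 95% interval -0.34 to 0.72). At 3.21 TPM in injured and 2.90 TPM in uninjured libraries it made up 1.66% and 1.47% of the level of COX4.

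In complex V, the ATP synthase, 13 genes had a median log2 fold change of 0.02 and 4 of them were below 0 (30.8%, against 52.0% of all genes). ATPsynbeta encodes the catalytic subunit and was the most abundant of the 72, at 644 ± 112 TPM in injured and 654 ± 30.5 TPM in uninjured libraries (SD, n = 5 each). It had 2265, 2022, 1633, 2379 and 1790 CPM in injured and 1866, 1925, 2138, 1984 and 2031 CPM in uninjured libraries. Injured libraries 1 and 4 were above the uninjured range and 3 and 5 below it, and the log2 fold change was 0.02 (SE 0.10, 95% interval -0.20 to 0.24, adjusted p = 0.903).

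ATPsynC, the subunit of the proton-driven rotor ring, had 1182, 1122, 929, 1421 and 1204 CPM in injured and 1131, 1115, 1181, 1150 and 1311 CPM in uninjured libraries. Injured library 4 was the highest and library 3 the lowest of the 10, with a log2 fold change of -0.01 (SE 0.10). The blw gene, which encodes the alpha subunit beside the catalytic one, had 1126, 1377, 1041, 1777 and 1452 CPM in injured and 1287, 1143, 1200, 1224 and 1362 CPM in uninjured libraries. Its log2 fold change was 0.12 (SE 0.13), with the same libraries at the extremes. The stalk genes ATPsyngamma, ATPsynB and ATPsynO stood at 0.10, 0.02 and 0.00, with SEs of 0.08 to 0.10.

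ATPsyndelta, a part of the rotating stalk, was the lowest main gene of complex V, at 11.7 TPM in injured and 11.2 TPM in uninjured libraries, where the other main genes had 94.9 TPM or more. Its longest transcript is 3.817 kb against a median of 0.934 kb for the complex, and TPM divides by that length. On the CPM scale it had 69.3, 79.9, 55.9, 74.6 and 60.8 CPM in injured and 64.6, 57.0, 62.0, 65.9 and 68.8 CPM in uninjured libraries. Injured libraries 2 and 4 were well above the uninjured range, library 1 just above it and library 3 just below it, with a log2 fold change of 0.10 (SE 0.10). ATPsynCF6L, the analysed copy of the complex, had 1.47, 3.12, 1.96, 2.11 and 3.14 CPM in injured and 2.24, 2.10, 4.74, 3.20 and 3.15 CPM in uninjured libraries. Its groups overlapped, and the log2 fold change was -0.40 (SE 0.28, 95% interval -1.01 to 0.22). In complex V 0 of 13 genes were called and 0 had an unadjusted p under 0.05 in edgeR, and DESeq2 called 0.

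Of the 83 genes 19 are second copies, and they accounted for every gene under the filter. The 11 copies at or below 2 TPM in both groups were ND-20L, ND-24L and ND-49L of complex I, UQCR-14L of complex III, COX6AL, COX6AL2, COX6CL and COX7AL of complex IV, and ATPsynGL, ATPsynbetaL and ATPsynepsilonL of complex V. Their means were 0.140 to 1.60 TPM in the 2 groups, on 1 to 29 counts per library. The smallest count in the table is 1, so that a 1 may stand for no read, and UQCR-14L was at 1 in all 10 libraries. ATPsynbetaL stood at 0.0217% of ATPsynbeta in injured and 0.0333% in uninjured libraries, and ND-49L at 1.40% and 1.14% of ND-49. The 8 copies that passed the filter had means of 12.2 TPM or less, with ND-B14.5AL at 10.1% of ND-B14.5A in injured and 8.52% in uninjured libraries. The subunits levy, sun and ox have names outside the rule and gave values of the same kind. The COX6A gene levy showed a log2 fold change of -0.03 (SE 0.06), the ATP synthase gene sun -0.16 (SE 0.09) and the complex III gene ox -0.14 (SE 0.14), and 0 of 3 were called by edgeR, with adjusted p of 0.232 to 0.766.

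The injured libraries differed more among themselves than the uninjured ones. The coefficient of variation of CPM was larger in the injured group for 68 of 72 genes (94.4%, against 60.2% of all genes tested), with a median of 13.5% in injured and 6.78% in uninjured libraries. For all genes tested these medians were 11.7% and 9.58%. In other lists described below, the share with the larger value in the injured group was 100% for citric acid cycle genes and 92.3% for carriers. It was 84.6% for glycolysis and 80.2% for cytoplasmic ribosomal protein genes, but 60.3% for mitochondrial ribosomal protein genes and 55.6% for import genes. Among the subunit genes the spread was largely shared. Measured as the deviation of log2 CPM from the gene's mean over 10 libraries, the median of the 72 was 0.14, 0.04, -0.24, 0.05 and -0.11 in injured libraries 1 to 5 and -0.05, -0.04, 0.06, 0.02 and 0.08 in uninjured libraries 1 to 5. The median of all genes lay between -0.01 and 0.01 in every library, where normalisation over these same genes holds it near 0. Some other lists deviated too. In injured library 3 the median was -0.25 for glycolysis and -0.22 for citric acid cycle genes. It was -0.09 there for mitochondrial ribosomal protein genes and 0.015 for regulators of mitochondrial DNA and dynamics.

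Injured libraries 1 and 3 were the ends of this range. Library 1 was the highest injured library for 42 of 72 genes (58.3%, against 26.4% of all genes) and library 3 the lowest for 55 of 72 (76.4%, against 17.2%). Without library 1 the larger spread was in the injured group for 52 of 72 genes (72.2%, against 49.9% of all genes), without library 3 for 61 (84.7%, against 58.8%), and without both for 42 (58.3%, against 43.7%). The choice of these libraries was made after their values were seen. Without both, 3 of 72 genes were called by edgeR, COX7A (-0.39, adjusted p = 0.00214), ND-15 (-0.36, 0.00435) and ND-MNLL (-0.31, 0.00975), all lower, against 7.26% of all genes called lower and 16.6% called in either direction.

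**Figure D4:**
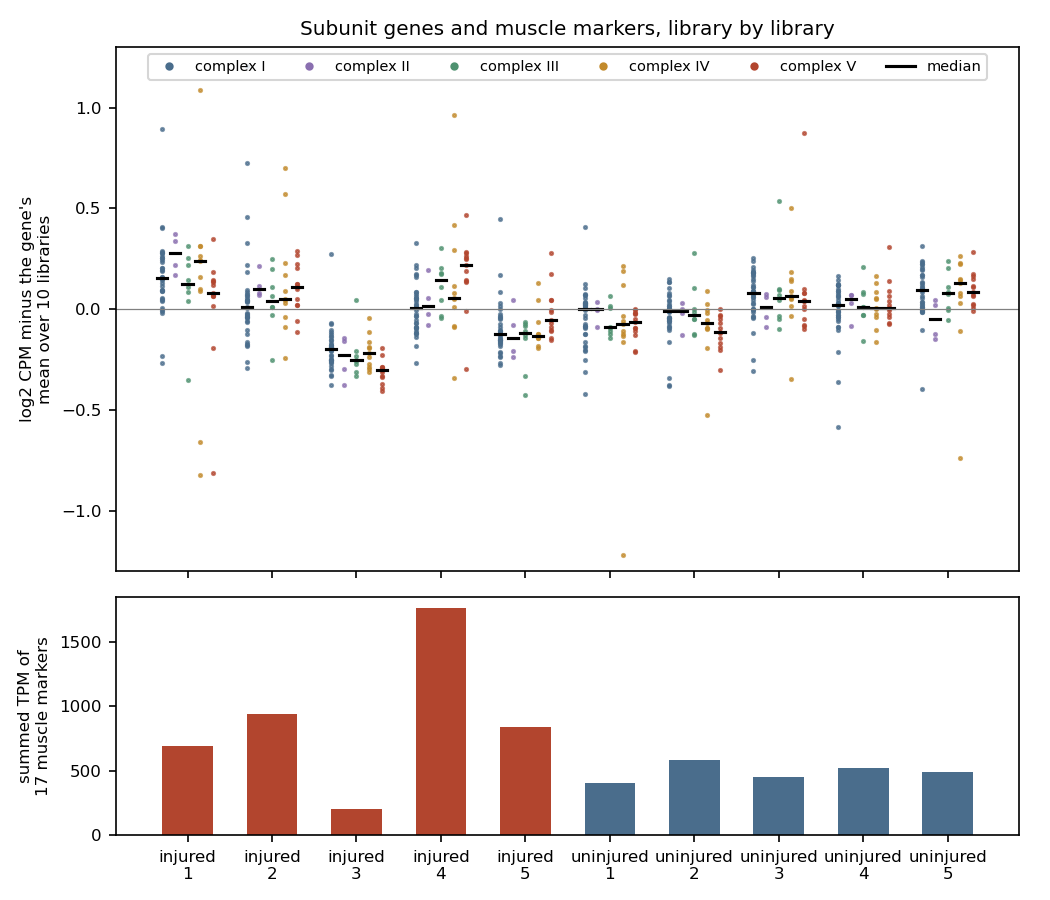
Upper panel, deviation of log2 CPM of each of the 72 genes from its own mean over 10 libraries, by library and coloured by complex, with black bars for the median of a complex. Lower panel, summed TPM of 17 muscle markers in the same libraries, injured in red and uninjured in blue. Injured library 3 is lowest in both panels. Injured library 4 has the highest medians of complex III (0.14) and complex V (0.22) and the highest muscle sum (1761 TPM).

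Muscle markers varied between the same libraries. All 17 genes of the list were matched and tested, none was at a count of 1 throughout, and their TPM summed to 691, 936, 200.3, 1761 and 838 in injured libraries 1 to 5 and to 401, 582, 449, 522 and 485 in uninjured libraries. Injured library 3 was below and the other 4 above the uninjured range. The median log2 fold change of the 17 was 0.78, with 0 called by edgeR, DESeq2 or limma-voom and 3 at an adjusted p under 0.05 in edgeR, all higher (5 at an unadjusted p under 0.05). The library with the least muscle signal also had the lowest subunit genes. Library 4, with the most, had the highest medians of complexes III and V (complex III 0.14, against 0.13 in library 1). Library 1 had the highest medians of complexes I, II and IV. Complex V deviated by 0.08, 0.11, -0.30, 0.22 and -0.05 in injured libraries 1 to 5, and complex I by 0.15, 0.01, -0.20, 0.00 and -0.12. The part of muscle RNA in these differences was not tested.

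The balance between complexes also varied more between injured libraries. The summed TPM of complex I was 0.874, 0.788, 0.886, 0.681 and 0.765 of that of complex V in injured libraries 1 to 5, and 0.847, 0.867, 0.867, 0.837 and 0.825 in uninjured libraries. Injured libraries 2, 4 and 5 lay below and libraries 1 and 3 above the uninjured range. For complex IV over complex V the ratios were 0.516, 0.471, 0.498, 0.400 and 0.448 in injured and 0.460, 0.480, 0.480, 0.480 and 0.484 in uninjured libraries. For complex II over complex V they ran from 0.121 to 0.159 in injured and from 0.126 to 0.145 in uninjured libraries, and for complex III from 0.290 to 0.332 and from 0.303 to 0.318. Injured libraries 4 and 5 had the lowest ratios of the injured group for all 4 complexes. The third lowest was library 2 for complexes I, II and IV and library 3 for complex III (0.320, against 0.321 in library 2). The share of reads from ribosomal and small nuclear RNA, which the alignment sheet gives by replicate name and not by column, was 19.6% to 26.9% in injured and 19.5% to 22.4% in uninjured libraries, and its part was not tested either.

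Other genes of energy metabolism and of the mitochondrion are given for comparison, from the same fit. Among 13 assembly factors of the respiratory complexes 0 were called by edgeR (7 at an unadjusted p under 0.05), with a median of -0.20. Of 73 mitochondrial ribosomal protein genes 0 were called (24 at an unadjusted p under 0.05) and the median was -0.20, and of 9 import genes 0 were called (4 at an unadjusted p under 0.05), also with a median of -0.20. DESeq2 called 0, 0 and 1 genes of these 3 lists, and limma-voom 0 in each. No row was matched by name for 4 of 17 listed assembly factors and 5 of 15 listed import genes. For 86 cytoplasmic ribosomal protein genes the median was -0.17, and 1 was called, RpS14b, with a log2 fold change of -0.39, which kept its call in 8 of 19 alternative fits. At an unadjusted p under 0.05 in edgeR there were 21 of the 86, all lower. The lowest log2 fold change of the list was -2.63, in a gene that was not called. The medians of the subunit genes (-0.01) and of 15 regulators of mitochondrial DNA and dynamics (0.00, with 0 called by edgeR, 5 at an unadjusted p under 0.05 and 2 called by DESeq2) were nearer to that of all genes. No test compared the lists with each other.

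The 13 genes for electron and metabolite carriers had a median of -0.15. In edgeR 6 were at an unadjusted p under 0.05, 2 higher and 4 lower, and DESeq2 called 2. By edgeR 1 was called, the higher Gpo1, the mitochondrial glycerol-3-phosphate dehydrogenase that feeds electrons to ubiquinone. It averaged 209.9 ± 33.1 CPM in injured and 159.5 ± 8.79 CPM in uninjured libraries (SD, n = 5 each; log2 fold change 0.40, SE 0.09, adjusted p = 0.00837). It kept this call in 8 of 19 alternative fits, whose adjusted p ran from 0.000601 to 0.0329, and lost it with limma-voom and without any 1 of injured libraries 1, 2 and 4 and uninjured libraries 1, 2, 3 and 5. The 12 matched citric acid cycle genes, of 16 listed, had a median of 0.05. Of these, 0 were called by edgeR (3 at an unadjusted p under 0.05), DESeq2 or limma-voom. In glycolysis 1 of 13 genes rose and 2 fell. Ldh, lactate dehydrogenase, averaged 37.2 ± 7.05 CPM in injured and 10.9 ± 4.20 CPM in uninjured libraries, or 1.77 on the log2 scale (SE 0.22, adjusted p = 5.99e-05). Hex-C, a hexokinase, averaged 22.7 ± 3.94 CPM in injured and 60.8 ± 7.49 CPM in uninjured libraries (-1.42, SE 0.12, adjusted p = 2.21e-06). Both kept their calls in all 19 alternative fits.

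**Figure D5:**
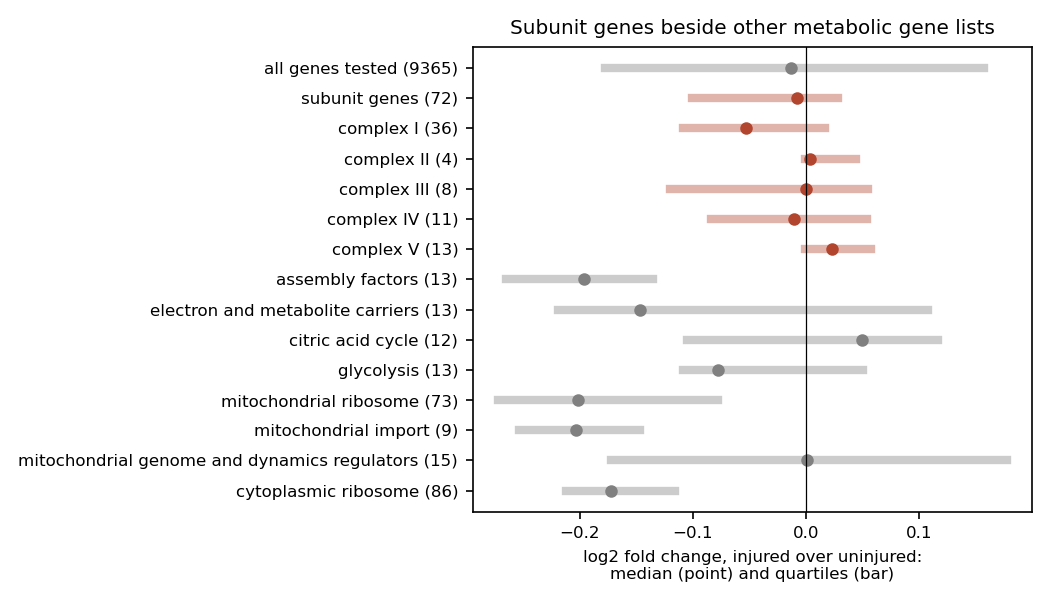
Median (points) and quartiles (bars) of the log2 fold change, injured over uninjured, for all genes tested, the 72 subunit genes and the 5 complexes (red), and 8 lists of other genes (grey), with the number tested in brackets. Subunit genes have medians between -0.05 and 0.02, and assembly factors, import genes and both kinds of ribosomal protein genes between -0.20 and -0.17.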

How the data were processed

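RNA from 5 injured and 5 uninjured pools was sequenced on one lane. Reads were aligned by the authors to Release 5 of the fly genome (BWA within GeneSifter, versions not given in the sources used here). The estimated counts they deposited are within 0.00063 of whole numbers and were rounded here. The TPM deposited by the authors is RPKM by its formula, counts divided by the longest transcript's length and by the mapped reads of the library. The alignment sheet deposited by the authors gives numbers of reads by class, from which each percent was computed. Their own fold changes, adjusted p-values, log2 values, gene lists and correlations were not used. The number of per-sample columns not used was 0. Libraries are numbered by column of the count table, and these numbers were not matched to the replicate names in the labels.

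Symbols came from a later annotation: 80 members matched by current identifier, 2 by CG number and 1 by an older name. No coordinates are given, since the builds differ, and sequences of these genes were not analysed here. 1 row with a value that was not a number was left out, and 9365 genes above 2 TPM in a group were tested in R 4.3.3 by edgeR 4.0.16 with all 10 libraries, TMM factors of 0.971 to 1.04, quasi-likelihood fits and a call at an adjusted p under 0.01 with no fold minimum. Intervals are at 95% and come from the SE and the total degrees of freedom of that fit, residual and prior together. The fit was tested on simulated data. Alternatives were DESeq2 1.42.0 and its size factors, limma 3.58.1 (voom, and log2(TPM + 0.5)), library totals, other filters and thresholds, each library left out, and the column number as a block. Leaving out injured libraries 1 and 3 together was chosen after seeing the data.

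The members and the comparison lists were chosen with earlier results of these data known. Named were, in each complex, the 2 analysed genes with the highest mean TPM and the 1 with the lowest, every called member, copies under the filter, and up to 2 called genes of each other list. Others are marked or were chosen after their values were seen, among them the 4 genes with an adjusted p under 0.05, RFeSP, UQCR-C2, Cyt-c1, UQCR-6.4, UQCR-Q, SdhC, blw and the stalk genes. No row was found for 4 names of the rule (COX7CL, ND-AGGG, UQCR-11, UQCR-6.4L).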

Additional observations from a re-analysis of the deposited data

Results flagged for a closer look

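In 2 of 48 sets of 5 libraries, taken for the 19 named subunit genes and the 5 complex sums in each group, 1 library stood far from the other 4, measured by its gap to the nearest of them as a share of the whole range. Chance marks about 1 in 20 such sets. COX6B had 216.5 CPM in injured library 3, against 269.3 to 280.1 CPM in the other injured libraries. SdhB had 190.0 CPM in uninjured library 4, against 163.0 to 170.2 CPM in the other uninjured libraries.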

How the results depend on the processing

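The call of 0 higher and 0 lower subunit genes was unchanged with DESeq2's size factors, library totals, limma-voom, limma on log2(TPM + 0.5), no TPM filter, filterByExpr, and a fold minimum of 1.2. DESeq2 gave 1 higher and 1 lower. An adjusted p under 0.05 gave 1 higher and 3 lower. Fits without 1 library gave 0 to 4 lower, the 4 without injured library 1, and 0 higher throughout. With injured libraries 1 and 3 both left out, 3 were lower, and the larger spread was in the injured group for 42 of 72 genes, against 68 with all libraries and 52 to 61 without 1 of them. The median log2 fold change ran from -0.07 with limma on log2(TPM + 0.5), a scale on which the median of all genes was -0.06, to 0.05 without injured library 3, and from -0.06 to 0.05 over the fits without 1 library. The medians of complexes II to V changed sign between settings. For the 19 named genes all 361 values from the 19 other fits moved by less than the spread between libraries, and in 8 of them the gene passed the call set here (COX7A and COX7AL2 with DESeq2, and COX7A, ND-15 and ND-MNLL both without injured library 1 and without libraries 1 and 3). In other fits the adjusted p of each of these genes rose above 0.05, to 0.0555 for COX7A and 0.0849 for COX7AL2. The highest was 0.0616 for ND-15 and 0.109 for ND-MNLL. The labels share no replicate numbers. With the column number as a block, 0 subunit genes were called and the median was -0.02. Same-numbered columns correlated at -0.14 to 0.30 in their deviations. Columns of different numbers were not set beside them, so these values cannot decide whether the numbers pair libraries. For 7 of the 8 analysed copies, read at 10 to 156 counts per library, the interval leaves room for a change of more than 1.5-fold.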
